A study of Mus musculus with 4 samples.

Results

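The comparison described here asks what an agonistic antibody against the lymphotoxin-β receptor (LTβR) adds in tumors whose mice also received a STING agonist. It sets a library labelled STING and LTbR agonist (the combination library) against a library labelled STING agonist (the STING library), with 1 library a side. Cells were the barcodes that the labels assign to these libraries, kept when they held 300 to 5000 detected genes and at most 6% mitochondrial transcripts. This left 5333 cells of the combination library and 3748 of the STING library, together 9081 of the 23011 filtered cells of the series. RNA was counted in single live CD45-positive leukocytes sorted from subcutaneous tumors that KPC cells had formed in young adult male C57BL/6 mice. KPC is a pancreatic cancer line from genetically engineered mice, and CD45 is the surface protein that marks leukocytes.

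All mice of both groups carried this tumor, and both groups received the same STING agonist, the synthetic cyclic dinucleotide ADU-S100, injected into the tumor once. The combination group also received the agonistic LTβR antibody 4H8 into the peritoneal cavity repeatedly, and tumors were taken a few days after its last dose. A further pair of libraries, labelled LTbR agonist and untreated, held the same antibody with no STING agonist and no agonist at all, and is given beside the main pair without sharing a library with it. Tumors of a group were pooled before sorting, so no value belongs to a single animal. Single-cell sequencing was done in more than 1 experiment of the study, and the sources used here do not say which of these gave the libraries. With no replicate library in either group, no test was made and no p-value is given, and every interval below covers counting error only.

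STING is the adaptor by which cytosolic DNA, sensed through a cyclic dinucleotide, switches on type I interferon. LTβR is a receptor of the TNF family on stromal and myeloid cells. It is bound by lymphotoxin made by lymphocytes and by the ligand LIGHT, signals through the NF-κB pathway, and is known for building lymph nodes and the lymphoid aggregates of inflamed tissue called tertiary lymphoid structures. The gene lists used below cover interferon-stimulated genes, alternatively activated macrophages and lymphocyte homing, among other processes. They were chosen with earlier results of these data known.

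The STING library held 3955 barcodes and 32529174 unique molecular identifiers (UMIs, each standing for 1 captured transcript), and the combination library 5869 barcodes and 42710099 UMIs. Filtered cells had a median of 6748 UMIs in the STING library and 5877 in the combination library. Barcodes above the mitochondrial limit made up 2.68% (95% interval 2.199 to 3.23) of the STING library and 6.78% (6.15 to 7.45) of the combination library. The further pair differed the same way, with 2.71% of the untreated and 5.99% of the LTbR agonist library above the limit and medians of 7094 and 5750 UMIs. The part of these differences in results that both pairs share was not tested. Between the STING and the combination library, 33 barcode sequences were shared, 32 of them in filtered cells. Cells were sorted into classes by marker UMIs, and 126 cells (3.36%) of the STING library and 258 (4.84%) of the combination library passed more than 1 lineage gate and were left out of every class. Among these, 0 and 42 cells passed the T and B cell gates together, and 41 and 103 cells the T cell and macrophage gates.

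The receptors and ligands were measured first, as CPM, the UMIs of a gene per 1000000 UMIs of its class. Ltbr, which encodes LTβR (chr6:125306571-125313885 of GRCm38), stood at 66.8 CPM in macrophages and monocytes of the STING library and 59.8 CPM in those of the combination library. Dendritic cells held 33.7 and 40.8 CPM in the same order, and neutrophils 37.2 and 23.5 CPM, the latter from 2 UMIs. CD8 T and NK cells were far below these levels, with Ltbr at 0.666 and 1.504 CPM in CD8 T cells and 2.64 and 1.87 CPM in NK cells. B or plasma cells held 0 and 0.748 CPM. In the STING library this class was small, and a count of 0 there has an upper bound of 38.8 CPM, so it does not set the class below dendritic cells. Tmem173, which encodes STING, was detected more widely. It stood at 104 and 91.2 CPM in macrophages and monocytes, 111 and 90.8 CPM in dendritic cells, 72.5 and 50.2 CPM in conventional CD4 T cells and 31.6 and 37.4 CPM in B or plasma cells, where 31.6 CPM amounts to 3 UMIs. In neutrophils, 4 UMIs of Tmem173 were counted in the STING library and 0 in the combination library.

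The ligand that the antibody stands in for was found in lymphocytes and in neutrophils. Ltb, which encodes lymphotoxin-β, stood at 659 CPM in conventional CD4 T cells of the STING library and 467 CPM in those of the combination library. It was at 457 and 423 CPM in CD8 T cells, 316 and 216 CPM in NK cells and 263 and 296 CPM in B or plasma cells. Neutrophils lay in the same range, at 232 CPM in the STING library and 422 CPM in the combination library, the latter from 36 UMIs, and dendritic cells lower, at 23.4 and 65.8 CPM. Macrophages and monocytes held little Ltb, but more in the combination library, at 4.28 and 16.2 CPM, and 3.14% and 9.79% of them held a UMI of it. Tnfsf14, which encodes LIGHT, lay the other way in these cells, at 12.5 CPM in the STING library and 3.26 CPM in the combination library.

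**Figure D1:**
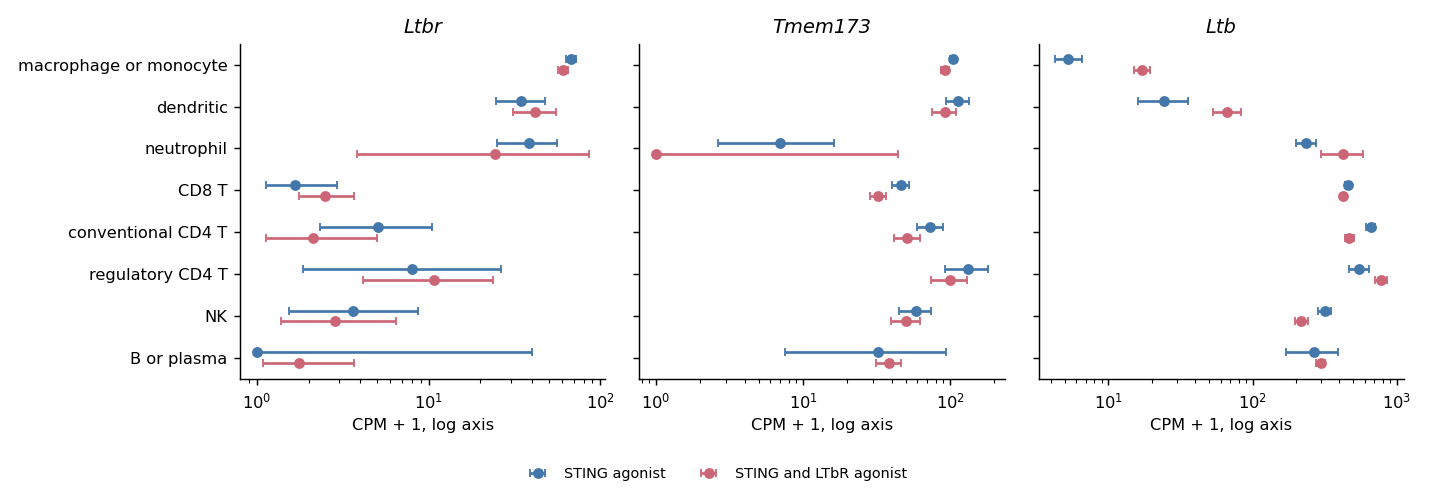
Ltbr, Tmem173 and Ltb in 8 cell classes of the STING and the combination library, as CPM plus 1 on a log axis, with exact 95% Poisson intervals. Ltbr is found in macrophages, dendritic cells and neutrophils and is close to 0 in lymphocytes, with a wide interval for B or plasma cells of the STING library. Ltb is high in lymphocytes and in neutrophils.

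The make-up of the leukocytes differed most in B cells and neutrophils. B or plasma cells, gated on B cell genes, among them Cd79a, Cd79b and Ms4a1, or on plasma cell genes, numbered 18 of 3748 cells (0.480%, 0.285 to 0.758) in the STING library and 452 of 5333 (8.48%, 7.74 to 9.26) in the combination library. Their share was 17.6-fold higher (10.2 to 32.5), against 2.55-fold (1.67 to 3.93) for the LTbR agonist over the untreated library. Among T, NK and B or plasma cells alone, the share went from 1.32% to 17.3%, a ratio of 13.1 (7.63 to 24.0). Cells that passed both the B cell and the macrophage gate, and so were left out, numbered 45 and 46.

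Neutrophils, gated on S100a8 and S100a9 together with Csf3r, Cxcr2, Retnlg or Mmp9, were 254 cells (6.78%, 5.99 to 7.63) in the STING library and 44 (0.825%, 0.600 to 1.11) in the combination library. The ratio of shares was 0.122 (0.0787 to 0.185). The LTbR agonist library lay the other way against the untreated library, at 1.65 (1.26 to 2.18). Neutrophils were the shallowest class, with medians of 2391.5 and 1811.5 UMIs per cell.

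Macrophages and monocytes, gated on Csf1r, went from 1211 cells (32.3%) to 1287 (24.1%), a ratio of 0.747 (0.679 to 0.821). The C1q macrophages within them, which held at least 10 UMIs of the complement genes C1qa, C1qb and C1qc, had a lower share, at 14.6% and 7.39% of all cells (ratio 0.506, 0.425 to 0.603). The Ly6c2 monocytes differed less, at 12.2% and 10.8% (ratio 0.888, 0.753 to 1.05). CD8 T cells were 556 (14.8%) and 1001 (18.8%), a ratio of 1.27 (1.11 to 1.45) that was 0.939 among T, NK and B or plasma cells alone, while conventional CD4 T cells were 235 and 303, NK cells 175 and 273, and dendritic cells 93 and 98. The NK ratio of 1.096 (0.842 to 1.43) and the dendritic ratio of 0.741 (0.493 to 1.11) included 1. Shares add up to a whole, so that more cells of 1 class and fewer of another cannot be told apart from shares alone.

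**Figure D2:**
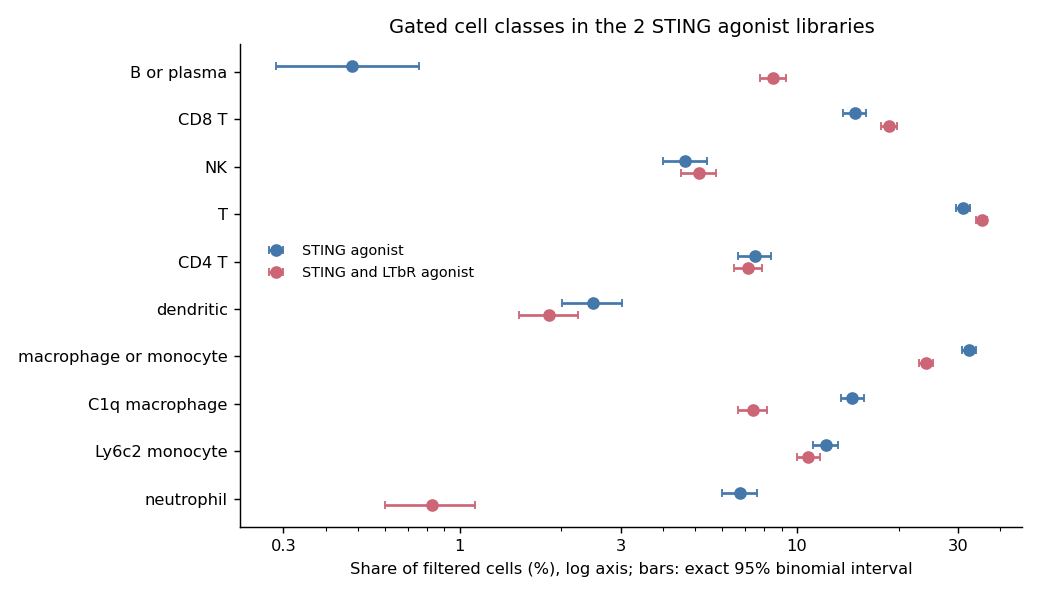
Share of all filtered cells in percent, on a log axis, for 10 gated classes of the STING and the combination library, with exact 95% binomial intervals. B or plasma cells stand at 0.480% and 8.48% and neutrophils at 6.78% and 0.825%, the widest gaps in the plot.

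Expression within each class was compared from summed UMIs as a log2 ratio of the combination over the STING library after adding 10 CPM to both, which understates the ratio of low genes. A gene entered with at least 50 UMIs in 1 of the 2 libraries, and is called higher or lower here when it differed at least 1.5-fold on that scale. In macrophages and monocytes, 9623 genes entered, of which 1.39% were higher and 1.1% lower, and the median over all of them was 0.02. Genes of alternative activation, the state induced by IL-4 and IL-13, were higher far more often than that. Of 14 measured list members 9 were higher and 2 lower, with a median of 0.74, and with 50 CPM added 5 were higher. The LTbR agonist library held 6 higher and 0 lower against the untreated library, with a median of 0.32, where 0.914% of the same 9623 genes were higher and 0.52% lower.

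Retnla (chr16:48842551-48844461), a secreted protein used as a marker of alternatively activated macrophages, stood at 13.5 CPM in the STING library and 232 CPM in the combination library, a log2 ratio of 3.36 (3.19 to 3.53). A single cell held 83.1% of the 189 UMIs in the STING library and 14.5% of the 2911 in the combination library, and cells with a UMI were 0.661% and 6.53%. T cells, which are not known to make Retnla, held 0 UMIs in the STING library and 359 (29.5 CPM) in the combination library, and 3.62% of them held a UMI. After thinning each cell to 1000 UMIs, 0.165% and 3.12% of macrophages and monocytes had a Retnla UMI, against 0% and 1.12% of T cells, whose median depths of 5615 and 5395 UMIs were below the 11177 and 9252 of macrophages. Of Retnla's level in macrophages, the combination value was therefore above that in T cells of the same library, and T cells themselves also differed between the libraries.

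Other genes of this state lay the same way. Chil3, a chitinase-like lectin, stood at 108 and 495 CPM (2.10, 2.00 to 2.21), and Mgl2, a galactose-binding lectin (CD301b), at 28.2 and 145 CPM (2.01, 1.85 to 2.18). Mgl2 was found in 6.77% of cells in the STING library and 19.0% in the combination library, so its difference did not rest on a few cells. The chemokine genes Ccl24, at 62.8 and 125 CPM (0.89), and Ccl8, at 34.7 and 81.2 CPM (1.03), and the mannose receptor gene Mrc1, at 85.4 and 147 CPM (0.72), were also higher in the combination library. Ccl17 went from 4.42 to 51.0 CPM, with 69.4% of its STING UMIs in 1 cell. Arg1, which encodes the arginine-degrading enzyme arginase 1, went against the list at 1934 and 1178 CPM (-0.71, -0.75 to -0.67), as did the IL-4 receptor gene Il4ra at 281 and 173 CPM (-0.67).

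Receptors for complement and for antibody lay lower in the combination library. Of 13 list members 7 were lower and 0 higher, with a median of -0.62, against 2 lower in the LTbR agonist over the untreated library. Fcgr4, the activating receptor for IgG2, stood at 424 and 181 CPM (-1.18, -1.27 to -1.09), the high-affinity receptor Fcgr1 at 469 and 243 CPM (-0.92), and Fcgr3 at 949.9 and 576 CPM (-0.71). The anaphylatoxin receptors C3ar1, at 233 and 120.5 CPM (-0.90), and C5ar1, at 159.7 and 86.6 CPM (-0.81), were lower as well. These are abundant genes, found in 81.7% and 57.7% of cells for Fcgr4.

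Of the 18 measured members of the inflammatory list, 3 were lower and 0 higher, with a median of -0.37. Ptgs2, the inducible cyclooxygenase, went from 494 to 280.2 CPM (-0.80) and the chemokine Ccl4 from 452 to 291 CPM (-0.62). Nos2, the inducible nitric oxide synthase, at 331 and 219 CPM (-0.57), and Il1b at 5091 and 3826 CPM (-0.41) lay lower but within 1.5-fold. The members of the type I interferon-stimulated list lay within 1.5-fold in macrophages: of 29 measured, 0 were higher and 0 lower, and Isg15 stood at 1139 and 1124 CPM. The interferon-γ-induced list had 2 of 19 lower, among them the GTPase gene Gbp4 at 146 and 86.0 CPM (-0.70). Of 23 members of the NF-κB and LTβR pathway, Ltb was the 1 higher and Tnfsf14 the 1 lower gene, with a median of -0.03. In CD8 T cells 0 of 21 members of this list were higher and 1 lower, in NK cells 0 of 17 either way, and in dendritic cells 1 of 17 was higher and 1 lower.

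**Figure D3:**
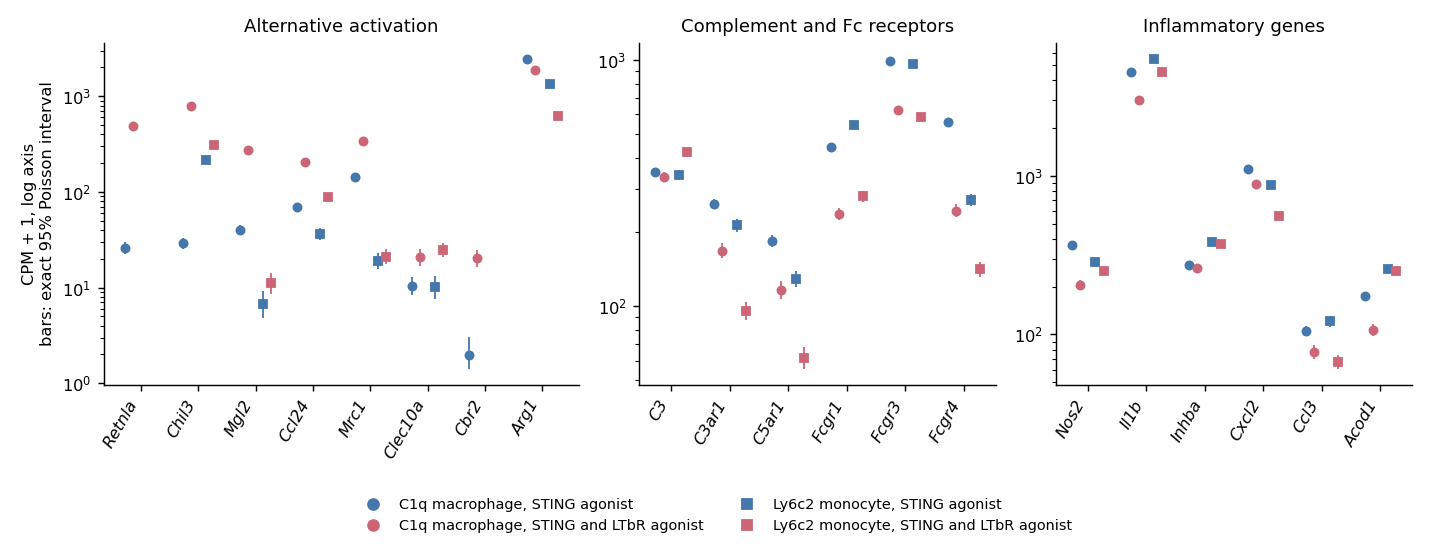
Levels of selected genes of alternative activation, of complement and Fc receptors, and of inflammation, as CPM plus 1 on a vertical log axis. Circles are C1q macrophages and squares Ly6c2 monocytes, of the STING library (blue) and the combination library (red). Red symbols lie above blue ones for Retnla, Chil3, Mgl2 and Mrc1 in C1q macrophages and below them for Fcgr4 in both subsets.

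By a rule of the largest differences, the genes furthest apart in macrophages and monocytes on the higher side were, beside Retnla, Chil3 and Mgl2, Pglyrp1 and Ace. Pglyrp1, a peptidoglycan-binding protein, stood at 8.63 and 73.1 CPM (2.16), and Ace, the angiotensin-converting enzyme found on patrolling monocytes, at 14.7 and 83.0 CPM (1.91). Klf2, a transcription factor that restrains inflammatory activation and a member of the homing list, was at 96.9 and 252 CPM (1.30). On the lower side were Ddit4, a stress-induced mTOR inhibitor, at 215 and 75.0 CPM (-1.40), Ecm1, an extracellular matrix protein, at 449 and 169 CPM (-1.36), and the protease inhibitor Slpi at 250.3 and 95.9 CPM (-1.30). Ifitm1, an interferon-induced membrane protein outside the type I list, went from 2609 to 1068 CPM (-1.28) and the early response gene Ier3 from 706 to 287 CPM (-1.27). For Ifitm1 the LTbR agonist library lay about as low against the untreated library, at -1.17. The lipid carrier Apoe (3243 and 1791 CPM, -0.85) and the matrix protein Thbs1 (1078 and 487 CPM, -1.13) were lower too.

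Since C1q macrophages were a smaller part of the class in the combination library, 30.6% against 45.2%, both subsets were also read apart. In C1q macrophages 8402 genes entered (2.07% higher, 1.36% lower), and 9 of 14 alternative activation genes were higher and 1 lower, with a median of 1.30. Mrc1 stood at 143 and 338 CPM (1.18), Mgl2 at 38.9 and 274 CPM (2.54), Ccl8 at 66.1 and 213 CPM (1.55) and Chil3 at 28.1 and 794 CPM (4.400), where 1 cell held 23.3% of the combination UMIs. In Ly6c2 monocytes 7605 genes entered (1.62% higher, 2.13% lower), and only 2 of 10 members of the same list were higher and 2 lower, with a median of -0.01. Mrc1 was at 17.97 and 19.98 CPM there and Mgl2 at 5.73 and 10.1 CPM.

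Arg1 and Apoe differed more in the monocytes. Arg1 went from 1353 to 623 CPM (-1.11) in Ly6c2 monocytes and from 2460 to 1866 CPM (-0.40) in C1q macrophages, and Apoe from 1002 to 426 CPM (-1.21) and from 5368 to 3962 CPM (-0.44). Whether the subsets differ from each other in these ratios was not tested. Fcgr4 was lower in both, at 558 and 243 CPM (-1.16) in C1q macrophages and 269 and 140.0 CPM (-0.89) in monocytes, and the complement and Fc list had 5 of 10 members lower in each. Cells with at least 3 UMIs of Arg1 were 59.6% and 38.7% of the whole class, and 25.9% and 16.7% after thinning, with no more than 0.32% of T cells after thinning. Neutrophil markers in the class summed to 67.9 and 39.2 CPM and T cell markers to 3.50 and 3.26 CPM, with all 3 T markers detected in both libraries, and their part in these results was not tested.

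Conventional CD4 T cells, which held Cd4 but no Foxp3, held gene groups that lay on both sides. From 235 cells (1228040 UMIs) in the STING library and 303 (1792254 UMIs) in the combination library, 5193 genes entered, of which 3.87% were higher and 5.08% lower, with a median of -0.06. Fewer UMIs stand behind these shares than in macrophages. Of 21 measured type I interferon-stimulated genes 17 were lower and 0 higher, from -1.75 to -0.17 with a median of -0.75. In the LTbR agonist over the untreated library 0 were lower and 0 higher, with a median of 0.04, where 1.87% of the same 5193 genes were higher and 1.68% lower. With gates set after thinning, 78 and 96 cells remained, 6 members entered and 1 was lower, and with 50 CPM added 8 were lower.

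Ifit3, which encodes an interferon-induced protein, stood at 117 CPM in the STING library and 27.9 CPM in the combination library. Its log2 ratio was -1.75 (-2.27 to -1.22), and it was found in 17.4% and 5.94% of cells. Its paralog Ifit1 stood at 103 and 35.2 CPM (-1.33), and the ubiquitin-like Isg15 at 263 and 153 CPM (-0.75). Irf7, the transcription factor that amplifies the interferon response, stood at 139 and 51.3 CPM (-1.28) and was found in 39.6% and 20.8% of cells. Rtp4, an interferon-induced chaperone, was at 140.1 and 49.1 CPM (-1.34). The interferon-γ-induced list lay the same way, with 9 of 14 lower, 0 higher and a median of -0.80, led by the GTPase genes Gbp6, at 206 and 64.7 CPM (-1.53), and Gbp2, at 160 and 51.9 CPM (-1.46). With gates set after thinning 4 of its members entered, of which 0 were lower, with a median of -0.26.

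The promoters of these genes were read for the sequence by which interferon is known to act on them. The interferon-stimulated response element, bound by IRF factors, was searched as its core, GAAA and GAAA set 2 bases apart, on both strands from 250 bases before to 50 bases after each gene's start in RefSeq (GRCm38.p6). It was found in 943 of 27025 windows (3.49%), in 13 of the 22 type I list members with a window (59.1%) and in 7 of 13 (53.8%) of those that were lower in conventional CD4 T cells. The 250 bases before the start are shown for the 3 of them with the lowest ratios that held a match, with the matches in capitals. Ifit3 lies at chr19:34583279-34583528 on the plus strand, Ifit1 at chr19:34640639-34640888 on the plus strand and Isg15 at chr4:156200819-156201068 on the minus strand, and each sequence reads toward its gene.
Ifit3: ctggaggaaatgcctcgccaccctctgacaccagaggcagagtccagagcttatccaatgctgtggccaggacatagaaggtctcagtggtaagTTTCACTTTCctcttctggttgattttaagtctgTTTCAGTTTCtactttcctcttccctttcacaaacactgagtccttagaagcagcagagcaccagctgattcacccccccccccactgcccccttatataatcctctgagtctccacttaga
Ifit1: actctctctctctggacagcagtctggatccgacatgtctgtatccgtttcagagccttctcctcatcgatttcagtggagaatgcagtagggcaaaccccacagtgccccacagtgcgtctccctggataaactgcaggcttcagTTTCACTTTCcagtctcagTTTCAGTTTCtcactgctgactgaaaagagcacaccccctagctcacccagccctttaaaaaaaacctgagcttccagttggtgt
Isg15: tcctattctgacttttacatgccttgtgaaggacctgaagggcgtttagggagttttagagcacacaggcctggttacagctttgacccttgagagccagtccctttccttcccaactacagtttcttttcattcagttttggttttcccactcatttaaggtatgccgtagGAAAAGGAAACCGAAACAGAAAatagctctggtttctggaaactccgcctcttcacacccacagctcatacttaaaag

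The matches began 156 and 122 bases before the start of Ifit3, 104 and 85 bases before that of Ifit1, and 78, 72 and 66 bases before that of Isg15, where the 3 overlap. In the interferon-γ-induced list 11 of 14 windows (78.6%) held the element, and in the alternative activation list 0 of 13 did. A site that STAT6 binds downstream of IL-4, searched as TTC and GAA set 4 bases apart, was in 1888 of all windows (6.99%), in 4 of 13 of the alternative activation list (30.8%) and in 3 of 22 of the type I list. A match is a description of the letters and not evidence of binding in these cells.

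In other classes the type I list did not lie as low. In CD8 T cells 0 of 27 members were higher and 0 lower, with a median of -0.04, and Ifit3 stood at 58.6 and 57.7 CPM. In NK cells 1 of 16 was higher, Ifi27l2a, with 44.8% of its combination UMIs in 1 cell, and the median was 0.11. In dendritic cells 4 of 22 were lower, with a median of -0.39. Whether these classes differ from conventional CD4 T cells was not tested.

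Type 2 genes were higher in the same conventional CD4 T cells. Of 12 measured members of the list of type 2 cytokines and of genes of cells with the IL-33 receptor ST2, 10 were higher and 0 lower, with a median of 1.39, against 6 higher and a median of 0.65 in the LTbR agonist over the untreated library, where 1.87% of the genes that entered were higher. Il1rl1, which encodes ST2 (chr1:40429570-40465415), went from 18.7 to 259 CPM, a log2 ratio of 3.23 (2.69 to 3.75), and from 5.11% to 23.4% of cells. In the LTbR agonist library its ratio over the untreated library was 0.24. Il13, the cytokine that drives alternative activation together with IL-4, went from 19.5 to 133 CPM (2.28, 1.70 to 2.84), and by 3.56 in the LTbR agonist over the untreated library.

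The other cytokines of the list were at the limit of detection in the STING library. Il5, which supports eosinophils, was counted with 3 UMIs there and 127 in the combination library, and Il4 with 3 and 97, of which a single cell held 29.1% and 33.0% in the combination library. Gata3, the transcription factor of type 2 T cells, stood at 87.1 and 206 CPM (1.16), the epidermal growth factor family ligand Areg at 186.5 and 529.5 CPM (1.46), and the opioid precursor Penk at 186 and 477 CPM (1.32). Ccr4 and Ccr8, chemokine receptors of such cells, were the members within 1.5-fold, at 45.6 and 29.0 CPM (-0.51) and at 158 and 192.5 CPM (0.27). Pparg, a lipid-sensing nuclear receptor found in type 2 T cells and outside the list, went from 14.7 to 114 CPM (2.33).

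**Figure D4:**
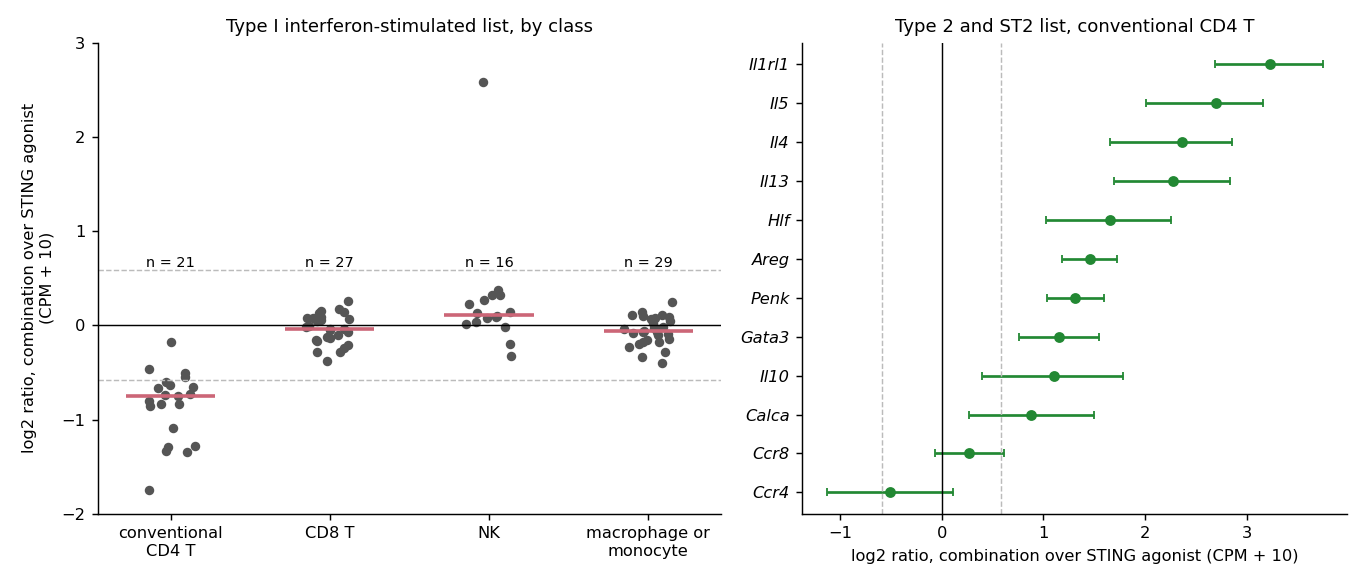
Left, log2 ratios of the combination over the STING library for the members of the type I interferon-stimulated list in conventional CD4 T cells, CD8 T cells, NK cells and macrophages or monocytes, with the median as a red bar and 1.5-fold as dashed lines. Right, the type 2 and ST2 list in conventional CD4 T cells with 95% counting intervals, where 10 of 12 genes lie above 1.5-fold.

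Cell cycle genes were also higher, with 8 of 10 measured members above 1.5-fold and a median of 1.40, as they were in the LTbR agonist over the untreated library (8 higher, median 0.79, against the 1.87% of all genes). Mki67 stood at 39.1 and 165 CPM, with 43.8% of its STING UMIs in 1 cell. With each cell weighted equally, 6 of the 10 cell cycle genes were higher, with a median of 0.69. Over all T cells the share passing a cycling gate had a ratio of 1.17 (0.838 to 1.64), which included 1. When cells passing the type 2 or the cycling gate were left out, a setting added after seeing the data, 215 and 222 cells remained. Of the type I list 11 members were then lower, with Ifit3 at 128 and 34.7 CPM (-1.63), and of the type 2 list 1 was higher, of the 4 that still entered. Il1rl1, then with 4 and 12 UMIs (3.66 and 11.2 CPM), and Pparg, outside the list and with 7 and 32 UMIs (6.40 and 29.98 CPM), were below the minimum of 50 UMIs. When cells with a UMI of a macrophage, B cell or dendritic marker were left out, 204 and 229 cells remained, and 18 of 21 type I genes were lower and 10 of 12 type 2 genes higher.

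Further genes furthest apart in conventional CD4 T cells were Igfbp4, an insulin-like growth factor binding protein, with 1 UMI in the STING library and 109 in the combination library, and Pclaf, a factor of DNA replication, at 8.14 and 57.5 CPM (1.89). Cxcr3, the receptor by which type 1 T cells follow interferon-induced chemokines, was lower at 156 and 39.6 CPM (-1.74, -2.21 to -1.27) and was found in 44.7% and 17.8% of cells. Ly6c2, at 186.5 and 56.4 CPM (-1.57), Ifit1bl1, a relative of Ifit1, at 46.4 and 8.37 CPM (-1.62), and Ifitm2, at 651 and 217 CPM (-1.54), were also lower. In the cytotoxic list 5 of 12 were lower and 1 higher, and the inhibitory NK receptor gene Klrc1 went from 201 to 69.7 CPM (-1.40), with -1.34 in the LTbR agonist over the untreated library.

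In the NF-κB and LTβR pathway 1 of 19 genes was higher, Nfkb1 at 422 and 689 CPM (0.69), and 1 lower, Tnf at 66.0 and 27.9 CPM (-1.003). Immediate early and heat shock genes, which tissue dissociation can induce, had 7 of 17 lower and 0 higher, with a median of -0.54. Macrophage markers (5 of 5 detected in both libraries) summed to 34.2 and 94.3 CPM, dendritic markers to 84.7 and 162 CPM and B cell markers to 0.814 and 3.35 CPM. The part of these differences in the results for conventional CD4 T cells was not tested.

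Over all T cells 10060 genes entered, of which 0.636% were higher and 0.547% lower. Subsets that need several UMIs in a cell were also counted. The type 2 gate uses genes already given above, so its share is not a separate result. Cells of the type 2 gate, with at least 2 UMIs of Il1rl1, Il4, Il5 and Il13, were 28 of 1166 T cells (2.40%) in the STING library and 137 of 1881 (7.28%) in the combination library, a ratio of 3.03 (1.78 to 5.34). After thinning they were 0.431% and 2.29%, and 0% of macrophages. Naive-like T cells, gated on several markers of naive T cells, among them Ccr7 and Lef1, were 57 (4.89%) and 210 (11.2%), a ratio of 2.28 (1.55 to 3.40), and 0.172% and 1.76% after thinning, against 0% and 0.0779% of macrophages. Cells of the IL-17 gate lay lower without leaving the interval of 1, at 5.49% and 3.62% (ratio 0.659, 0.405 to 1.07). For the LTbR agonist over the untreated library the ratios were 2.31 for the type 2 gate, 1.75 for the naive-like gate and 1.77 for the IL-17 gate.

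**Figure D5:**
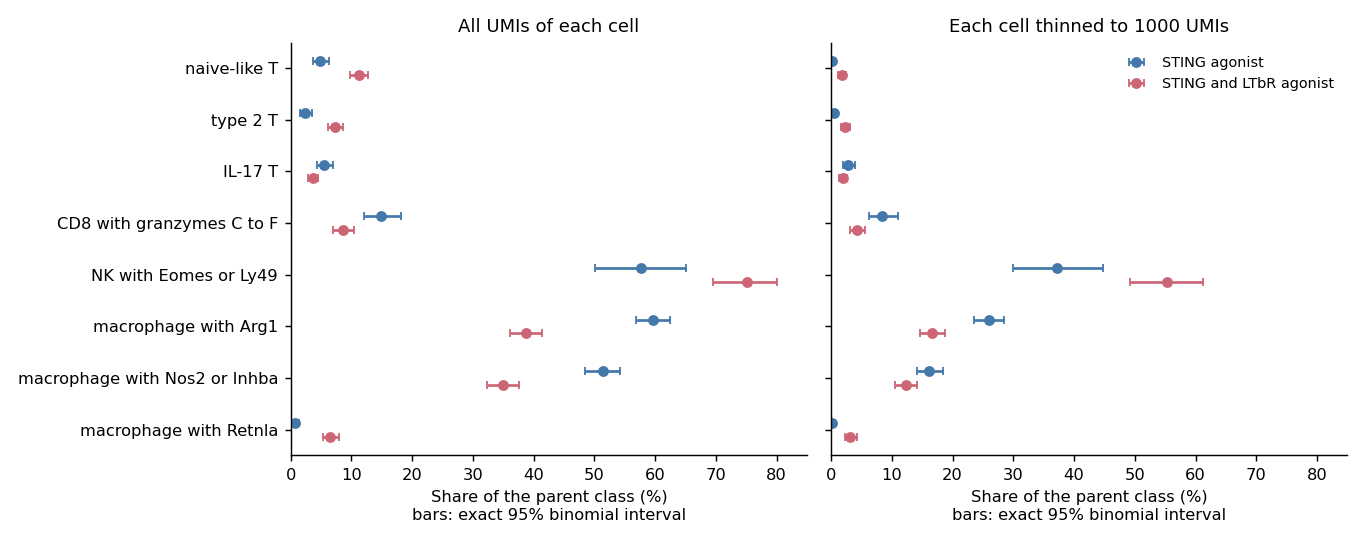
Share of the parent class, in percent on a linear axis, for 8 marker-gated subsets of the STING and the combination library. Left, from all UMIs, and right, after thinning each cell to 1000 UMIs, with exact 95% binomial intervals. Type 2 and naive-like T cells and macrophages with Retnla lie higher in the combination library in both panels.

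In CD8 T cells fewer genes stood apart: of 8940 that entered, 0.783% were higher and 0.772% lower. Genes of naive and memory T cells were higher more often than that, with 5 of 14 higher, 0 lower and a median of 0.39, and the LTbR agonist over the untreated library had the same counts with a median of 0.47, where 0.794% of the genes that entered were higher and 0.928% lower. With 50 CPM added, 1 of the 14 was higher in the combination over the STING library, with a median of 0.22. S1pr1, the receptor for exit from tissue, stood at 16.2 and 34.6 CPM (0.77), and the survival gene Bcl2 at 318 and 542 CPM (0.75). Tcf7, the transcription factor of stem-like T cells, was at 61.7 and 80.7 CPM (0.34), within 1.5-fold.

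Among effector genes 2 of 16 members of the cytotoxic list were lower and 0 higher, with a median of -0.31. Gzmf, a granzyme of strongly activated cells, went from 754 to 321 CPM (-1.21, -1.31 to -1.103) and was found in 12.9% and 7.39% of cells, and Ifng from 499.6 to 293 CPM (-0.75). Gzmb at 2378 and 1931 CPM (-0.30) and the pore-forming Prf1 at 1051 and 779 CPM (-0.43) were within 1.5-fold, and Gzma lay the other way at 187 and 282 CPM (0.57). Against the untreated library, the LTbR agonist library had 10 of these 16 lower, with a median of -0.72, against 0.928% of all genes that entered. CD8 T cells with at least 2 UMIs of granzymes C to F were 14.9% and 8.59% (ratio 0.576, 0.381 to 0.870), and 8.47% and 4.21% after thinning.

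Checkpoint genes differed little, with 1 of 15 lower, Cd160 at 68.8 and 33.4 CPM (-0.86). Pdcd1, which encodes PD-1, stood at 580.0 and 475 CPM (-0.28), Lag3 at 736 and 515 CPM (-0.51) and Havcr2, which encodes TIM-3, at 299 and 316 CPM (0.08). Homing genes had 2 of 17 higher and 2 lower, among the latter the chemokine receptor gene Cxcr3, at 54.4 and 27.5 CPM (-0.78). Bnip3, at 52.2 and 121.0 CPM (1.08), and Vegfa, at 12.4 and 35.1 CPM (1.01), were the 2 of 21 hypoxia and glycolysis genes that were higher.

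By the rule of the largest differences, Areg led in CD8 T cells, at 34.9 and 98.6 CPM (1.28, 1.00 to 1.55), in 3.42% and 7.69% of cells. It was followed by genes of MHC class II, which mouse T cells are not known to make: H2-Ab1 stood at 55.5 and 148 CPM (1.27), H2-Aa and H2-Eb1 lay alike, and their chaperone Cd74 stood at 185 and 404 CPM (1.09). Of 6 members of that list 4 were higher, while macrophage markers in the class summed to 44.2 and 85.6 CPM, B cell markers to 1.11 and 2.19 CPM and dendritic markers to 79.3 and 67.4 CPM. In the 460 and 755 CD8 T cells without a UMI of these markers, 0 of 5 class II genes were higher and H2-Ab1 stood at 35.6 and 41.6 CPM, while Areg stayed at 30.2 and 102 CPM and Gzmf at 802 and 352 CPM. The 204 and 229 conventional CD4 T cells without such a UMI lay the other way. There H2-Ab1 stood at 126 and 36.3 CPM (-1.55), H2-Aa at 162 and 33.3 CPM (-1.99) and Cd74 at 395 and 90.0 CPM (-2.02). The source of this class II RNA was not tested. Lowest in CD8 T cells, beside Gzmf, were Spp1 (osteopontin) at 432 and 187 CPM (-1.17), the desmosome protein gene Pkp3 at 131 and 53.3 CPM (-1.15), the neuropeptide gene Calca at 47.5 and 17.9 CPM (-1.04) and the immediate early gene Fos at 174.5 and 86.7 CPM (-0.93).

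In NK cells 4843 genes entered, of which 1.96% were higher and 2% lower. Gzmb stood at 1208 and 1904 CPM (0.65, 0.52 to 0.78) and Gzma at 2835 and 4324 CPM (0.61). In the LTbR agonist over the untreated library Gzmb lay lower, at -1.04, and Gzma at 0.34. The cytotoxic list had 5 of 15 higher and 0 lower, with a median of 0.02, and 3 of the 5, Gzmd, Gzme and Gzmf, had 49.4% to 76.4% of their combination UMIs in 1 cell. Itga2 (CD49b), an integrin of circulating NK cells, stood at 82.0 and 162 CPM (0.91), and Itga1 (CD49a), which marks tissue-resident cells, at 118 and 109 CPM (-0.10). Cells with a UMI of Eomes, the transcription factor of conventional NK cells, or of the Ly49 genes Klra4, Klra8 and Klra9 were 101 of 175 (57.7%) and 205 of 273 (75.1%), a ratio of 1.30 (1.07 to 1.60), and 37.1% and 55.3% after thinning, against 0.0826% and 0.234% of macrophages.

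Lower in NK cells were Ctla4, an inhibitory receptor, at 204 and 82.7 CPM (-1.20), the calcium-dependent kinase Camk4 at 212 and 95.8 CPM (-1.07), Ckb, a creatine kinase, at 48.5 and 18.03 CPM, Cd160 at 77.6 and 33.6 CPM (-1.01) and Slc26a11 at 67.0 and 30.5 CPM (-0.93). Higher were AA467197, at 44.1 and 116 CPM (1.22), Gigyf1, Fkbp5, at 39.7 and 84.6 CPM (0.93), and Ski, an inhibitor of TGF-β signaling, at 58.2 and 117.5 CPM (0.90). Immediate early and heat shock genes had 8 of 16 lower and 0 higher, with a median of -0.57, and -0.06 in the LTbR agonist over the untreated library. All 6 MHC class II genes were higher, with 42.3% of the combination UMIs of H2-Ab1 in 1 cell. Macrophage markers summed to 24.7 and 323 CPM in the class. In the 150 and 221 NK cells without a UMI of macrophage, B cell or dendritic markers, H2-Ab1 stood at 31.8 and 31.9 CPM.

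γδ T cells, gated on Trdc, were 63 and 97 cells, and 1844 genes entered, of which 6.13% were higher and 4.99% lower. Il17a, the cytokine that recruits neutrophils through epithelial and stromal cells, stood at 1934 CPM in the STING library and 1046 CPM in the combination library (-0.88, -1.101 to -0.66), in 44.4% and 43.3% of cells. Il23r, the receptor that sustains such cells, lay the other way at 238 and 368.5 CPM (0.61, 0.13 to 1.09). The IL-17 list as a whole had 2 of 9 higher and 2 lower. Il17f was also lower, at 195 and 19.7 CPM (-2.78), with 45.9% of its STING UMIs in 1 cell.

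In dendritic cells, which held both Ltbr and Tmem173, 3873 genes entered, of which 2.76% were higher and 4.16% lower. The interferon-γ-induced list had 6 of 16 lower and 0 higher, with a median of -0.46, beside 5 lower and -0.48 in the LTbR agonist over the untreated library, where 1.83% of the same genes were lower. Mgl2 was higher at 111 and 272 CPM (1.22), as were Prkcb, a kinase of antigen receptor signaling, at 24.3 and 95.8 CPM (1.62), the complement factor gene Cfb at 35.6 and 101 CPM (1.28), Slamf8 at 26.2 and 74.9 CPM (1.23) and the E-cadherin gene Cdh1 at 22.5 and 59.1 CPM (1.09). Dusp2, a phosphatase of activated leukocytes, went from 145 to 49.96 CPM (-1.37), Gstt3 from 66.5 to 19.98 CPM (-1.35), Wfdc17 from 354 to 136 CPM (-1.32), Tagap from 106 to 39.1 CPM (-1.24) and Lilr4b from 212 to 88.3 CPM (-1.17). With gates set after thinning, 32 and 33 dendritic cells remained, and the ratios of Prkcb, Cfb and Cdh1 were -0.16, -0.0430 and -0.0268.

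The dendritic maturation list had 1 of 14 higher and 1 lower. Cells with Ccr7 and Fscn1, the markers of mature migratory dendritic cells, were 45.2% and 49.0% of the class, and cells of the Xcr1 and Clec9a gate 33.3% and 31.6%. Alternative activation genes had 6 of 11 higher and 1 lower, with a median of 0.83. Macrophage markers summed to 2483 and 2843 CPM in this class. Among them C1qa alone stood at 173 and 416 CPM, and at 4.40 (1 UMI) and 194 CPM (56 UMIs) in the dendritic cells of the Cd209a gate, so that a macrophage marker was higher together with Mgl2 and the alternative activation list. The part of these markers in the values of dendritic cells was not tested.

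Neutrophils, regulatory T cells and B cells had fewer than 50 cells in 1 library, so values and ratios of single genes are given but no counts of genes past 1.5-fold. In neutrophils (671147 UMIs in the STING library and 85253 in the combination library) the chemokine genes that attract further neutrophils lay lower, with Cxcl3 at 2494 and 609.9 CPM (-2.01) and Cxcl2 at 17267 and 9442 CPM (-0.87). In the LTbR agonist over the untreated library the same genes stood at 1.29 and 0.29. Ccl4 went from 4553 to 1724 CPM (-1.40) and Fcgr3 from 824 to 340.2 CPM (-1.25). Cxcr4, the receptor that holds neutrophils in bone marrow, stood at 355 and 739 CPM (1.04), the cyclin gene Ccnd3 at 219 and 739 CPM (1.71), the surface protein gene Ly6e at 474 and 1196 CPM (1.32), the peroxidase gene Gpx1 at 444 and 1103 CPM (1.29) and Ifi27l2a at 1316 and 2522 CPM (0.93). Ttc39b, with 90 UMIs, and the activation marker Cd69, with 54, were at 0 in the combination library, where 3 UMIs would amount to 35.2 CPM. Also lower by the rule of the largest differences were Mpzl3, at 122 and 11.7 CPM (-2.60, -3.97 to -0.51), Tinf2, at 367 and 58.6 CPM (-2.46), and Dop1b, at 231 and 35.2 CPM (-2.41), from 1, 5 and 3 UMIs in the combination library.

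Regulatory CD4 T cells with a Foxp3 UMI were 46 and 79. Areg, through which such cells aid tissue repair, was high in both, at 2389 and 2595 CPM (0.12). Rbpj, the transcription factor of Notch signaling, stood at 131 and 378 CPM (1.47), while Zfp36, which destabilizes cytokine transcripts, stood at 695 and 295.0 CPM (-1.21), Bcl3 at 265 and 109 CPM (-1.21), Il4ra at 233 and 114.5 CPM (-0.96) and Birc3, an NF-κB target, at 526 and 283 CPM (-0.87).

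The 18 B or plasma cells of the STING library limit every value of that class. Of them 6 held a UMI of Ighd, the heavy chain of mature naive B cells, against 320 of 452 (70.8%) in the combination library, and 10 against 431 held Ighm. Plasma cell gated cells were 7 of 18 and 72 of 452 (15.9%), and cells with IgG transcripts 2 and 19. All 18 cells of the STING library together held 78 UMIs of Ighm, 4 of Ighg2b, 3 of Ighg2c and 0 of Igha. After thinning no cell of that library passed the plasma cell gate. Whether its gated cells were plasma cells was not tested. Igha UMIs numbered 3086 in the combination library, 99.4% of them from 1 cell. Genes of antigen presentation were high in both libraries, with Cd74 at 9457 and 14629 CPM (0.63, 0.52 to 0.74) and H2-Ab1 at 2022 and 2828 CPM (0.48, 0.25 to 0.73). The kinase gene Pim1 stood at 579 and 252.5 CPM (-1.17), Pik3ap1 at 548 and 368 CPM (-0.56), Jak1 at 527 and 356 CPM (-0.55), the B cell receptor kinase Syk at 864 and 607 CPM (-0.50) and Cdc42 at 621 and 443 CPM (-0.48). Cd69 was counted with 10 and 830 UMIs, in 27.8% and 66.4% of cells.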

How the data were processed

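The authors sorted live CD45-positive cells of pooled tumors, made 10x Genomics 5′ libraries and counted UMIs with Cell Ranger 7.1.0 against mm10, the GRCm38 build. The deposited matrix holds these raw counts as whole numbers for 32285 genes and 24839 barcodes, with the library given by the barcode's ending, which the labels assign to a sample. Here the study's own limits were applied (300 to 5000 genes, at most 6% mitochondrial UMIs), leaving 23011 cells. Classes were gated on raw UMIs of marker genes with 8 lineage gates and 29 subset gates, and their names are rebuilt here, so that they can differ from those of the study and values with them. Doublets were not removed beyond cells passing more than 1 lineage gate.

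UMIs were summed per class and library and scaled to CPM. Ratios used 10 CPM added and at least 50 UMIs in 1 of the 2 libraries. Genes past a 1.5-fold limit were counted for classes with at least 50 cells in both libraries, and smaller classes have ratios of single genes only. Shares have exact (Clopper-Pearson) and CPM exact Poisson 95% intervals. The interval of a ratio sets opposite bounds against each other and is wider than a 95% interval. Molecules of 1 cell are not independent samples of a condition, and intervals cover counting error only. A count of 0 was kept as 0, and the level that 3 counts would amount to was computed beside it for reference. Shares of marker-positive cells were recomputed with every cell thinned to 1000 UMIs. Cells below that depth, 5 and 6 T cells and 0 and 3 macrophages or monocytes of the STING and combination libraries, did not enter. No statistical test was made.

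Genes were named by a rule: the 5 highest and 5 lowest ratios of each class among genes in at least 5% of its cells with no cell over 20% of the UMIs, without gate, receptor, ribosomal and mitochondrial genes, and up to 4 members of each of 31 lists. Members that differed little and marker genes were added after their values were seen. Some genes that the rule or the gates use are not reported here. The comparison, gates and lists were chosen with earlier results of these data known, and for 3 list entries the symbol was changed or dropped once the gene table had been read. The ratio code was tested on simulated counts with known changes. Promoter windows are RefSeq's for GRCm38.p6 and gene positions GENCODE's for GRCm38. Work used Python 3.11.15 with numpy 2.4.6, scipy 1.17.1, pandas 2.3.3, scanpy 1.11.5 (Scrublet) and matplotlib 3.10.9. Alternatives varied the gates, quality filter, doublet score, denominator, added CPM, UMI minimum, cell weighting and the cells entering a class.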

Additional observations from a re-analysis of the deposited data

Results flagged for a closer look

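Opposite differences with and without the STING agonist were looked for among the shares whose intervals left 1 on opposite sides in both pairs of libraries, and among the 5 highest and 5 lowest genes of each class with at least 50 cells in both libraries, where both intervals were to leave 0 and the ratio of the LTbR agonist over the untreated library to be past 1.5-fold. By this rule 5 measures lay opposite. Other values given above lay opposite outside the rule, among them Gzmb in NK cells (0.65 and -1.04), Cxcl3 in neutrophils (-2.01 and 1.29) and the share of the IL-17 gate (0.659 and 1.77). Each was read from 1 library a side, so that the difference between the pairs of libraries was not tested. The share of neutrophils had a ratio of 0.122 for the combination over the STING library and 1.65 for the LTbR agonist over the untreated library. The share of CD8 T cells had ratios of 1.27 and 0.840 among all cells, and of 1.12 and 0.743 among T cells. Among T, NK and B or plasma cells alone, the ratio of CD8 T cells for the first pair was 0.939, so its direction depends on the denominator. Areg in CD8 T cells had log2 ratios of 1.28 and -0.77, and Cdh1 in dendritic cells of 1.09 and -0.59. For Cdh1 the first ratio was -0.0268 when gates were set after thinning.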

How the results depend on the processing

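A count of genes was said to stay when it lay within 1.5-fold of its main value. A ratio was said to stay when it lay inside its main counting interval. Of the main results under every alternative, 287 values stayed, 58 moved and 2 turned around. Of the named genes 482 stayed, 114 moved and 4 turned around. The ratio of shares ranged from 13.1 to 24.6 for B or plasma cells, from 0.115 to 0.126 for neutrophils and from 0.458 to 0.591 for C1q macrophages. Gates set after thinning gave ratios of shares of 0.649 for macrophages or monocytes, 12.96 for naive-like T cells, 19.1 for type 2 T cells, 0.353 for macrophages with Nos2 or Inhba and 1.84 for NK cells with Eomes or Ly49, and genes past the fold of 219 higher and 235 lower in macrophages, 87 and 89 in conventional CD4 T cells, and lower ones of 63 in NK and 98 in dendritic cells. They left 78 and 96 conventional CD4 T cells, with 1 of 6 type I genes and 0 of 4 interferon-γ-induced genes lower and 3 of 5 type 2 genes higher. No cell cycle gene had enough UMIs to enter there. Class II genes were higher for 2 of 6 in CD8 T cells and for the 1 that entered in NK cells, where 2 of 11 immediate early genes were lower. Dendritic Prkcb turned to -0.16, Cfb to -0.0430 and Cdh1 to -0.0268. Doubled gate minima gave 0.638 for macrophages or monocytes, and no quality filter 13 higher cell cycle genes in conventional CD4 T cells. Among T, NK and B or plasma cells the ratios turned to 0.841 for T and 0.939 for CD8 T cells and moved to 0.814 for NK cells. Adding 1 CPM gave 382 higher and 283 lower genes in macrophages, 200 and 200 in CD8 T and 157 and 151 in NK cells. Adding 50 CPM gave 31 and 43, 14 and 17, and 41 and 18, with 71 and 95 in conventional CD4 T and 34 and 49 in dendritic cells. In macrophages 5 alternative activation genes were then higher and 2 neutrophil function genes lower. In the main setting 6 of 11 neutrophil function genes were lower, against 1.1% of all genes that entered. With 50 CPM, 1 naive gene was higher in CD8 T cells. Lower were 8 type I genes in conventional CD4 T cells and 5 immediate early genes in NK cells. No UMI minimum gave 468 and 555 in conventional CD4 T (17 cell cycle genes), 273 and 321 in NK and 434 and 455 in dendritic cells. The mean over cells gave 242 lower genes in dendritic cells, and leaving out the 5 cells with most UMIs of a gene 43 lower genes in CD8 T cells and 2 class II genes in NK cells. Chosen after seeing the data, leaving out type 2 and cycling cells gave 98 higher genes in conventional CD4 T cells, with 11 of 21 type I genes lower. By its own construction this setting left 1 of 4 type 2 and 0 of 2 cell cycle genes higher and Il13 at -0.32. Leaving out cells with another class's marker, also chosen then, gave 0 of 5 class II genes higher in CD8 T cells and 0 of 1 in NK cells. Thinned gates and leaving cells out also lower the UMIs behind each count, and the cause of the other changes was not tested. No paired analysis was possible because each group had 1 library, and leaving out a replicate was not possible for the same reason. Depth limits the values of neutrophils in the combination library (44 cells) and of B or plasma cells in the STING library (18 cells).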
